A study of Mus musculus with 2 samples.

Results

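The transcripts of 10 genes were examined in injured mouse kidney. They were 7 epithelial keratins (*Krt20*, *Krt7*, *Krt8*, *Krt18*, *Krt19*, *Krt10* and *Krt80*), the cornified envelope gene *Sprr1a*, and the intermediate filament genes *Vim* and *Nes*. These genes were chosen by symbol, and all 10 had a row among the 19829 genes of the deposited table. Fold changes were counted for genes that reached a value of 10 in one or both libraries, and 9 of the 10 did so. *Krt10* stayed below it.

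Messenger RNA was sequenced from whole kidney of mice with acute kidney injury (AKI), with 1 library for wild-type mice (WT+AKI) and 1 for transgenic mice that overexpress *Inmt*, an indolethylamine N-methyltransferase, in proximal tubules (TG+AKI). The study's methods describe male C57BL/6 animals with littermate controls, and the libraries came from animals 14 weeks old. Both genotypes received high-dose voclosporin, a calcineurin inhibitor, and both underwent ischemia–reperfusion (I/R) of the kidneys. The methods give the drug as 30 mg/kg daily for 2 weeks between 8 and 10 weeks of age, and I/R at 14 weeks. Another passage of the study describes a longer course of voclosporin before I/R. The comparison asked how the kidney transcriptome differed between the genotypes once injury had been induced in mice given this drug. No uninjured or untreated library was analysed here, so each difference below is one between 2 injured, drug-treated kidneys. The treatment field of both labels reads as if nothing had been given, while the series design names voclosporin. In its title the transgenic sample is called a conditional knockout as well, and the study's texts give differing times between I/R and harvest. The promoter driving the transgene was not given in the sources used here, and neither was whether a library came from 1 mouse or from pooled mice.

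The value of a gene is its number of reads per 1000000 of the scaled library. Whole reads could be recovered from every value, with 38542764 reads in WT+AKI and 36427421 in TG+AKI. With 1 library per group no difference has a replicate check. The 95% intervals given with ratios are exact intervals from the reads, cover counting error only, and compare these 2 libraries rather than the conditions. *Inmt*, the check of the labels, stood at 10.4 in the WT+AKI library and at 403 in the TG+AKI library, a ratio of 38.5 (interval 35.1 to 42.5).

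Keratins are the intermediate filament proteins of epithelia. A type I keratin pairs with a type II keratin, and *Krt8* (type II) with *Krt18* (type I) forms the common pair of simple epithelia, including kidney tubules. *Krt7* and *Krt19* are typical of ducts and collecting ducts, *Krt20* of urothelial umbrella cells and gut epithelium, and *Krt10* of the upper epidermis. Vimentin and nestin build filaments in mesenchymal, endothelial and glomerular cells, and vimentin is also known from injured tubule cells. Small proline-rich proteins such as *Sprr1a* are crosslinked into the cornified envelope of squamous epithelia, and *Sprr1a* is a known marker of injured cells in other tissues.

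*Krt20* differed most among these genes. It had 16926 reads and a value of 399 in WT+AKI, against 12 reads and a value of 0.362 in TG+AKI. That is 1102-fold lower in TG+AKI, with an interval of 631 to 2133 that is wide because of the few reads in TG+AKI. On the log2(value + 1) scale, which understates changes of low values, the difference was -8.20, rank 2 from the lowest of 10294 tested genes. *Sprr1a* followed, at 129 in WT+AKI against 1.24 in TG+AKI (5487 and 41 reads). It was 105-fold lower (interval 77.0 to 146; log2 difference -5.86) and ranked 4 from the lowest. So the kidney labelled WT+AKI held a large amount of both transcripts, and the kidney labelled TG+AKI held almost none.

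The promoter windows of both genes hold the letters of a TATA box. RefSeq promoter windows of 300 bases (250 before the transcription start to 50 after it, assembly GRCm38.p6) were searched on both strands. The motifs were TATAAA for the TATA box, TGACTCA for the AP-1 site and TTCCNGGAA for the STAT site. The windows of *Krt20* and *Sprr1a* are shown in full because these genes had the largest differences. Each is printed 5′ to 3′ on the strand of its gene, with matches in capitals. *Krt20* lies on the minus strand in the type I keratin cluster of chromosome 11 (gene at 11:99428403-99438150, window at chr11:99438104-99438403). *Sprr1a* lies on the minus strand of chromosome 3 (gene at 3:92483952-92485895, window at chr3:92485832-92486131).
Krt20: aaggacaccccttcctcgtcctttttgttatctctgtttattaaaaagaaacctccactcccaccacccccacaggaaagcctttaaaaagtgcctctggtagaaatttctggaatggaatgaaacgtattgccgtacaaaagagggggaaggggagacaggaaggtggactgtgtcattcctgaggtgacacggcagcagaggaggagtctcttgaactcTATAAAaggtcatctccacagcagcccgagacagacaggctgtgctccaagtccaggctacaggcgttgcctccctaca
Sprr1a: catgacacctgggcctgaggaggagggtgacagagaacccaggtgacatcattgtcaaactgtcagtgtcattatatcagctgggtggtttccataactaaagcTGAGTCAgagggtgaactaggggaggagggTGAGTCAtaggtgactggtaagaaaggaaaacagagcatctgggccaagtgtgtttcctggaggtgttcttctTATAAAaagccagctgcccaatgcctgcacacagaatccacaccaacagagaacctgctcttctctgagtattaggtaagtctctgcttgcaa
In the *Krt20* window the TATA box begins 29 bases before the start. In the *Sprr1a* window TGAGTCA, the AP-1 letters read on the other strand, begins 146 and 116 bases before the start, and the TATA box begins 43 bases before it. An AP-1 match is present in 5.20% of 32851 such windows of the mouse genome, a STAT match in 1.15% and a TATA match in 13.6%. A match describes the letters only.

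The keratin partners *Krt8* and *Krt18* were also lower in TG+AKI, but not to the same degree. *Krt8* stood at 297 in WT+AKI against 93.2 in TG+AKI (12584 and 3085 reads), 3.19-fold lower (interval 3.06 to 3.32; log2 difference -1.66). *Krt18* had 42.9 and 6.04 (1817 and 200 reads), 7.10-fold lower (interval 6.13 to 8.25; log2 difference -2.64). Set against each other within each library, which removes any effect of library scaling, the *Krt8* to *Krt18* ratio was 2.23 times higher in TG+AKI (interval 1.91 to 2.60). Per kilobase of the longest annotated transcript, the level of *Krt8* was 5.08 times that of *Krt18* in WT+AKI and 11.3 times in TG+AKI. Reads for *Krt8* carry some uncertainty, since 17.1% of the 100-base words of its transcript also occur elsewhere, mostly in the processed pseudogene *Krt8-ps*. *Krt8-ps* was listed with 158 and 47 reads, and adding these to *Krt8* left it 3.18-fold lower.

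The ductal keratins were both lower in TG+AKI, to unequal degrees. *Krt19*, a type I keratin, stood at 11.0 in WT+AKI against 1.33 in TG+AKI (468 and 44 reads) and was 8.31-fold lower (interval 6.09 to 11.6; log2 difference -2.37). *Krt7*, a type II keratin, had 91.4 and 58.5 (3873 and 1936 reads), only 1.56-fold lower (interval 1.48 to 1.65; log2 difference -0.64), which is under 2-fold. Relative to *Krt8*, *Krt7* was 2.04 times higher in TG+AKI than in WT+AKI (interval 1.91 to 2.18).

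*Krt80* and *Krt10* had ratios whose intervals include 1 on the deposited scaling. *Krt80*, a type II keratin of the epidermis and other epithelia, stood at 11.1 in WT+AKI against 11.4 in TG+AKI (471 and 378 reads; ratio 1.03, interval 0.895 to 1.18). Its direction depended on the scaling, with a log2 difference of 0.04 as deposited, -0.22 with equal library totals and -0.10 with the median ratio set to 1. With equal totals its ratio was 0.849, and the interval of 0.740 to 0.974 lies below 1. *Krt10* had 3.37 and 4.11 (143 and 136 reads; ratio 1.22, interval 0.956 to 1.55). Exons of *Krt7*, *Krt8*, *Krt10* and *Krt80* overlap annotated transcripts on the opposite strand (*Gm671*, *Gm36026*, *Gm11940* and *Gm35853*), and whether the counting used strand was not given in the sources used here. Of these, *Gm671* and *Gm35853* were listed, with at most 2.42 in either library.

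*Vim*, the mesenchymal filament gene, stood at 64.5 in WT+AKI against 20.5 in TG+AKI (2736 and 680 reads), 3.14-fold lower (interval 2.89 to 3.42; log2 difference -1.61). *Nes*, the gene for nestin, which co-assembles with vimentin, had 54.5 and 28.8 (2312 and 954 reads), 1.89-fold lower (interval 1.75 to 2.04; log2 difference -0.90), just under 2-fold. With equal totals *Nes* would pass 2-fold (-1.17), and likewise with the median ratio set to 1 (-1.04). Measured against each other, the *Vim* to *Nes* ratio was 1.66 times higher in WT+AKI (interval 1.48 to 1.86).

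**Figure D1:**
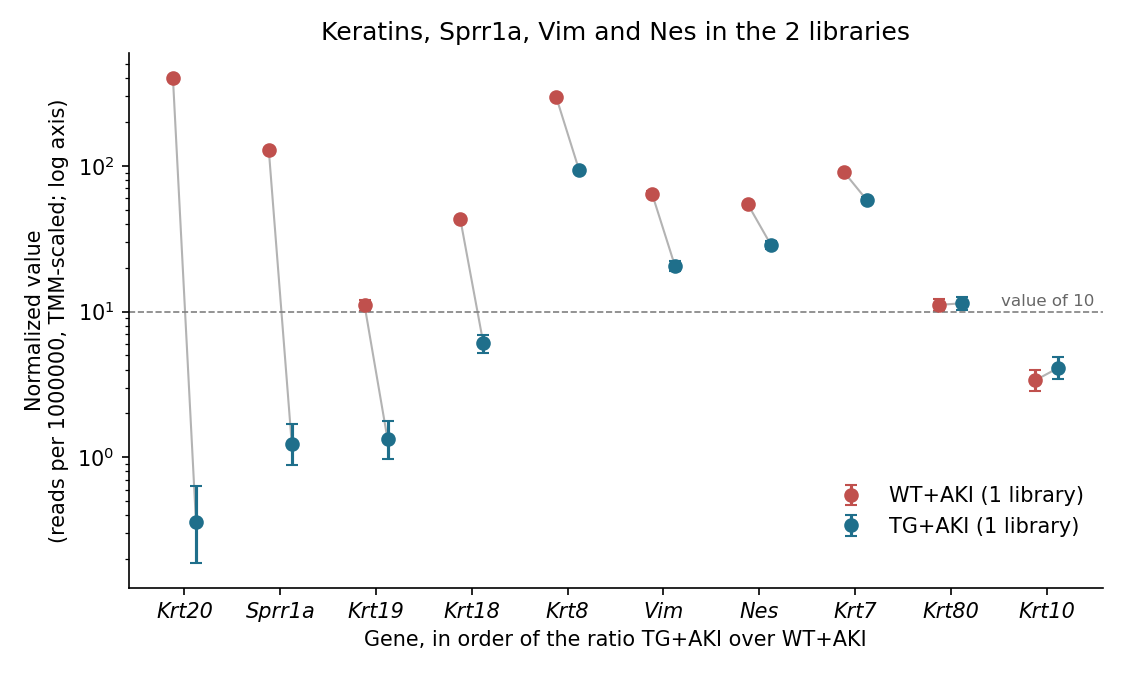
Normalized value (reads per 1000000 of the TMM-scaled library, log axis) of each of the 10 genes in WT+AKI (red) and TG+AKI (blue), 1 library each. Bars are 95% counting intervals, mostly smaller than the points, and the dashed line is the value of 10. *Krt20* and *Sprr1a* go from 399 and 129 to 0.362 and 1.24, whereas *Krt80* and *Krt10* lie at about the same height in both libraries.

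Counted together, 6 of the 9 tested genes (66.7%) were at least 2-fold lower in TG+AKI, against 7.12% of all 10294 tested genes. None of the 9 was at least 2-fold higher, against 5.74% of all tested genes. These shares are a description, since 4 of the 6 genes (*Krt20*, *Sprr1a*, *Krt19* and *Krt18*) reached the value of 10 in WT+AKI only and so entered the count through the library where they were high. Of the 5 genes that reached 10 in both libraries, 2 were at least 2-fold lower (*Krt8* and *Vim*). With no requirement on the value, 6 of all 10 genes were at least 2-fold lower, against 5.80% of all 19829 genes. The median log2 difference was -1.66 for the 9 genes and 0.01 for all tested genes. A two-sided exact binomial test on the reads of the 2 libraries called 8275 tested genes (80.4%) at an adjusted threshold of 0.05, so most genes differed between these libraries by more than counting error. The 6 genes at least 2-fold lower were *Krt20*, *Sprr1a*, *Krt19*, *Krt18*, *Krt8* and *Vim*. In the histogram of all tested genes, *Krt20* and *Sprr1a* lie in the far left tail, and *Krt80* lies at the centre.

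**Figure D2:**
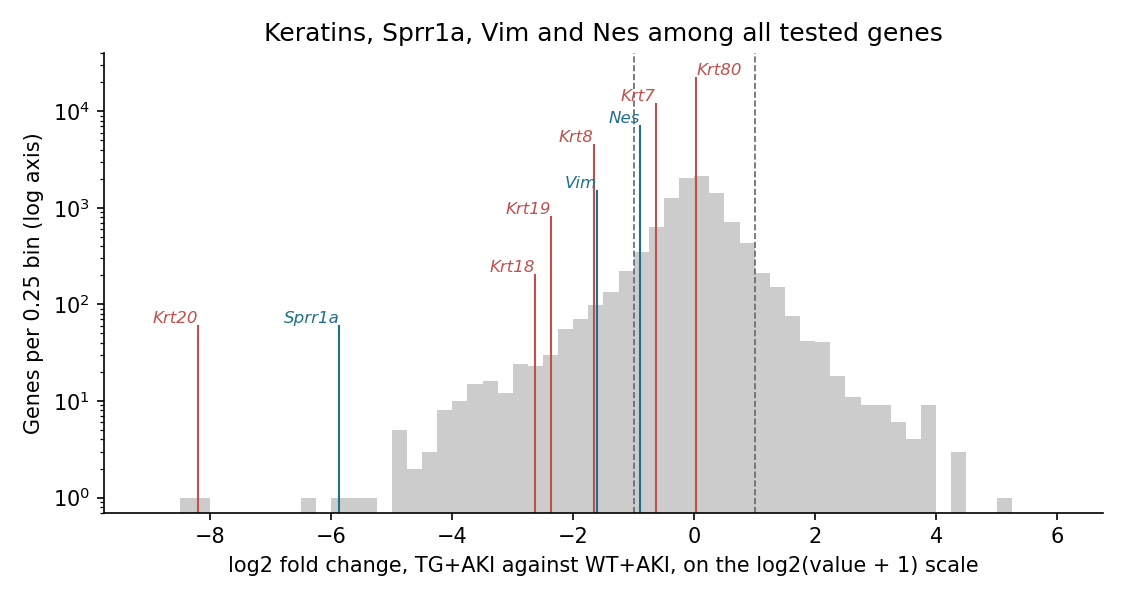
Histogram (log axis, bins of 0.25) of the log2 difference between TG+AKI and WT+AKI on the log2(value + 1) scale for 10294 tested genes, with the 9 tested keratin and related genes marked (red, keratins; blue, others). Dashed lines mark 2-fold. *Krt20* at -8.20 and *Sprr1a* at -5.86 lie apart from the bulk, 4 more genes lie between -2.64 and -1.61, and *Nes*, *Krt7* and *Krt80* lie inside the dashed lines.

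The order of the ratios was compared between neighbours with an exact interval that does not depend on library scaling. Of 9 neighbouring pairs, 6 differed by more than counting error. The ratio of *Sprr1a* was 10.5 times that of *Krt20* (interval 5.43 to 22.0), and the ratio of *Krt19* was 12.6 times that of *Sprr1a* (interval 7.94 to 19.9). The remaining 3 pairs could not be separated: *Krt19* and *Krt18* (1.17, interval 0.827 to 1.69), *Krt8* and *Vim* (1.01, interval 0.923 to 1.11), and *Krt80* and *Krt10* (1.18, interval 0.895 to 1.57). In these 2 libraries the order ran from *Krt20* through *Sprr1a*, *Krt19* and *Krt18* to *Krt8* and *Vim*, then *Nes*, *Krt7* and last *Krt80* and *Krt10*. The pairs were set by these same ratios, and the intervals cover counting error only. A pair that could not be separated is not thereby shown to be equal.

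By keratin type, 3 of the 4 type I keratins (*Krt20*, *Krt18* and *Krt19*, not *Krt10*) and 1 of the 3 type II keratins (*Krt8*, not *Krt7* or *Krt80*) were at least 2-fold lower, counted without the requirement on the value, under which 5.80% of all 19829 genes were lower. The 3 type I keratins reached a value of 10 in WT+AKI only, and whether the types differ was not tested. The summed value of the 4 type I keratins was 457 in WT+AKI against 11.8 in TG+AKI, 38.6-fold lower (interval 34.9 to 42.7). Most of that was *Krt20*, and without it the sums were 57.3 and 11.5, 4.99-fold lower (interval 4.48 to 5.58). The 3 type II keratins summed to 399 and 163, 2.45-fold lower (interval 2.38 to 2.53). Summed per kilobase, type I stood at 246 and type II at 177 in WT+AKI, against 7.20 and 64.8 in TG+AKI, so the larger sum was type I in WT+AKI and type II in TG+AKI. Leaving out *Krt20*, type II stood at 4.60 times type I in WT+AKI and at 9.24 times in TG+AKI.

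Within the pool of all 12 listed keratins, the make-up of the 2 libraries was different. No gene of the deposited table had a value of 0 in either library. A keratin without reads in one library could thus be missing from the pool. The pool held 36706 reads in WT+AKI against 5939 in TG+AKI, with summed values of 866 and 179 (4.83-fold lower, interval 4.70 to 4.96). *Krt20* made up 46.1% of keratin reads in WT+AKI (exact binomial interval 45.6 to 46.6) and 0.202% in TG+AKI (0.104 to 0.353). The share of *Krt8* was 34.3% in WT+AKI against 51.9% in TG+AKI and that of *Krt7* 10.6% against 32.6%, although the values of both were lower in TG+AKI. In a pool without *Krt20*, a comparison added after the data were seen, the share of *Krt8* was 63.6% against 52.0% and that of *Krt7* 19.6% against 32.7%, so the larger share of *Krt8* in TG+AKI rested on the loss of *Krt20* reads from the pool. *Krt80* went from 1.28% to 6.36% at a nearly equal value. *Krt18* made up 4.95% and 3.37%, and 9.19% and 3.37% without *Krt20*.

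**Figure D3:**
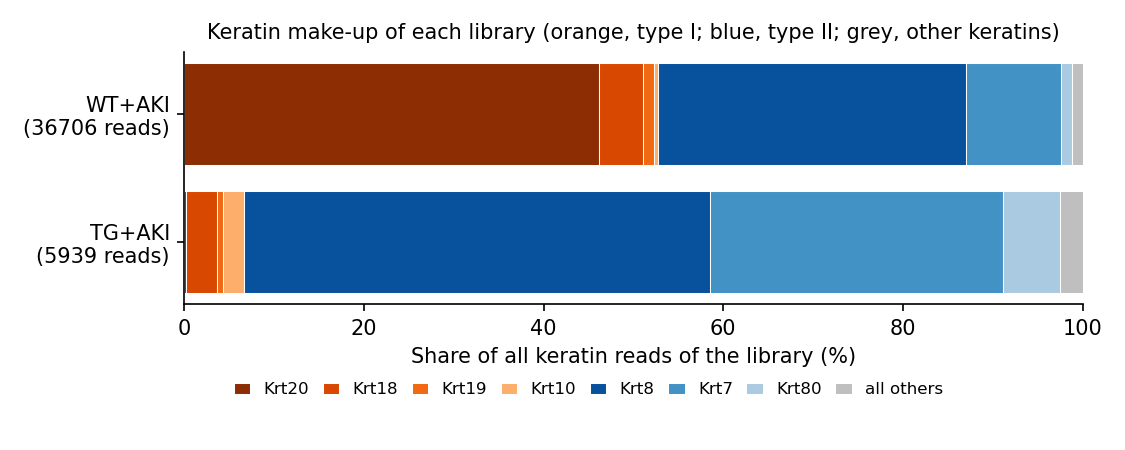
Share of the reads of listed keratins (%) taken by each keratin in WT+AKI (36706 reads) and TG+AKI (5939 reads), 1 library each. Type I keratins are in orange, type II in blue and the 5 other listed keratins in grey. *Krt20* fills 46.1% of the WT+AKI bar and 0.202% of the TG+AKI bar, where *Krt8* and *Krt7* take 51.9% and 32.6%.

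Per kilobase of the longest annotated transcript, the genes also changed order. In WT+AKI the highest levels were those of *Krt20* (207), *Sprr1a* (161) and *Krt8* (152), followed by *Krt18* (29.8). *Krt7* (22.3) and *Vim* (22.1) overlapped within counting error, and *Nes* (8.90), *Krt19*, *Krt80* (2.83) and *Krt10* (1.61) came last, in this order. In TG+AKI *Krt8* led at 47.6, ahead of *Krt7* at 14.3 and *Vim* at 7.02, and *Krt20* was last at 0.188. Between them *Nes* (4.70) overlapped *Krt18* (4.20), and *Krt80* stood at 2.91. *Krt10* (1.96) overlapped *Sprr1a* (1.54), which overlapped *Krt19* (0.843), so the order of these neighbours is within counting error. On the principal transcript *Vim* would stand higher, at 29.4 in WT+AKI, where it overlapped *Krt18*.

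Among the listed keratins, pairs that follow each other along a chromosome differed in their ratios of TG+AKI to WT+AKI. Keratin genes without a row were not considered and may lie between them. *Krt10* lies 39.0 kb from *Krt20* on chromosome 11 with a ratio of 1.22 beside 0.000908. *Krt8* (15:101996698-102004482, minus strand) and *Krt18* (15:102028180-102032027, plus strand) lie 23.7 kb apart on chromosome 15 although they belong to different types, with ratios of 0.314 and 0.141. On the same chromosome *Krt80* (15:101347444-101370162) and *Krt7* (15:101411043-101430313) are 40.9 kb apart, with ratios of 1.03 and 0.640. Among promoter windows, *Vim*, *Krt10* and *Krt8* also held a TATA match, and *Krt7*, *Krt18* and *Nes* held none of the motifs. The 30 bases around a TATAAA match on the strand of the gene are shown to allow comparison with *Krt20* and *Sprr1a*, from the windows chr2:13574061-13574360 (plus strand), chr11:99389315-99389614 (minus strand) and chr15:102004293-102004592 (minus strand).
Vim: tcctaacagtgtTATAAAagcagcgccctt
Krt10: gccctctcagtaTATAAAggctcggcactg
Krt8: ggcctcttctttTATAAAgggccttcgctg
The match begins 32 bases before the start in *Vim*, 26 in *Krt10* and 1 in *Krt8*, where a second match on the other strand, overlapping the first, begins 3 bases before the start. The TATA letters were found in *Krt20* and *Sprr1a* and also in *Krt10*, whose ratio interval includes 1. Whether they bear on the ratios was not tested. The starts are those of RefSeq and can differ from the end of the GENCODE gene, as in *Krt8*. CpG counts ranged from 0 in the *Sprr1a* window to 21 in that of *Krt7* (median of all windows, 7), with 6 in *Krt20* and *Krt8*, 17 in *Krt18* and 18 in *Nes*. No promoter entry was found for *Krt19* and *Krt80*.

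The other listed keratins all had low values. *Krt5*, a basal cell keratin, had 2.59 in WT+AKI against 0.332 in TG+AKI (110 and 11 reads; 7.81-fold lower, interval 4.20 to 16.1). *Krt23* had 2.45 and 1.12 (104 and 37 reads). *Krt15* and *Krt222* stayed at or below 1.09 in both libraries, with intervals that include a ratio of 1. Among other small proline-rich genes, *Sprr2g* had 619 reads in WT+AKI against 3 in TG+AKI, a ratio of 161-fold lower with a counting interval of 54.9 to 784. The annotation lists *Sprr2g* as a polymorphic pseudogene. *Sprr2a1*, *Sprr2a2* and *Sprr2a3* share transcript sequence with each other, so their reads are uncertain. *Sprr2a1* had 11 reads in WT+AKI against 23 in TG+AKI (ratio 2.68, interval 1.25 to 6.08), *Sprr2a2* 9 against 23 (ratio 3.27, interval 1.46 to 8.03) and *Sprr2a3* 1 against 2.

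Genes of proteins that bind or anchor keratin filaments were compared from lists of related genes. Of the plakins and desmosome proteins, 4 of 13 tested were at least 2-fold lower and 0 higher (median log2 difference -0.71), against 7.12% lower and 5.74% higher among all tested genes, the shares that also stand behind the counts of 3 tested genes given next. *Ppl* (periplakin, a linker of keratin filaments and a cornified envelope protein) had 44.7 and 5.10 (-2.91). *Plec* (plectin, a linker of filaments to junctions and to other filament systems) had 177 and 55.2 (-1.66), *Perp* (a desmosome membrane protein) 170 and 65.9 (-1.36), and *Dsp* (desmoplakin) 52.2 and 25.2 (-1.02). *Pkp2* had 50.6 and 25.5 (-0.96). A list of 12 genes of the cornified envelope and epidermis, without the *Sprr* family, had 4 rows. The envelope proteins *Ivl*, *Lor* and *Flg* had no row. Of the 3 genes tested, 2 were lower: *Sfn* (stratifin, not itself an envelope protein, 51.6 and 3.93, -3.42) and *Tgm1* (the crosslinking enzyme transglutaminase 1, 65.9 and 14.2, -2.14). *Tgm2* had 461 and 250 (-0.88). Of the other intermediate filament genes, 1 of 3 tested was lower, *Lmna* (lamin A/C, 132 and 49.1, -1.41), while *Des* (desmin, -0.52) and *Lmnb2* (-0.33) were within 2-fold.

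**Figure D4:**
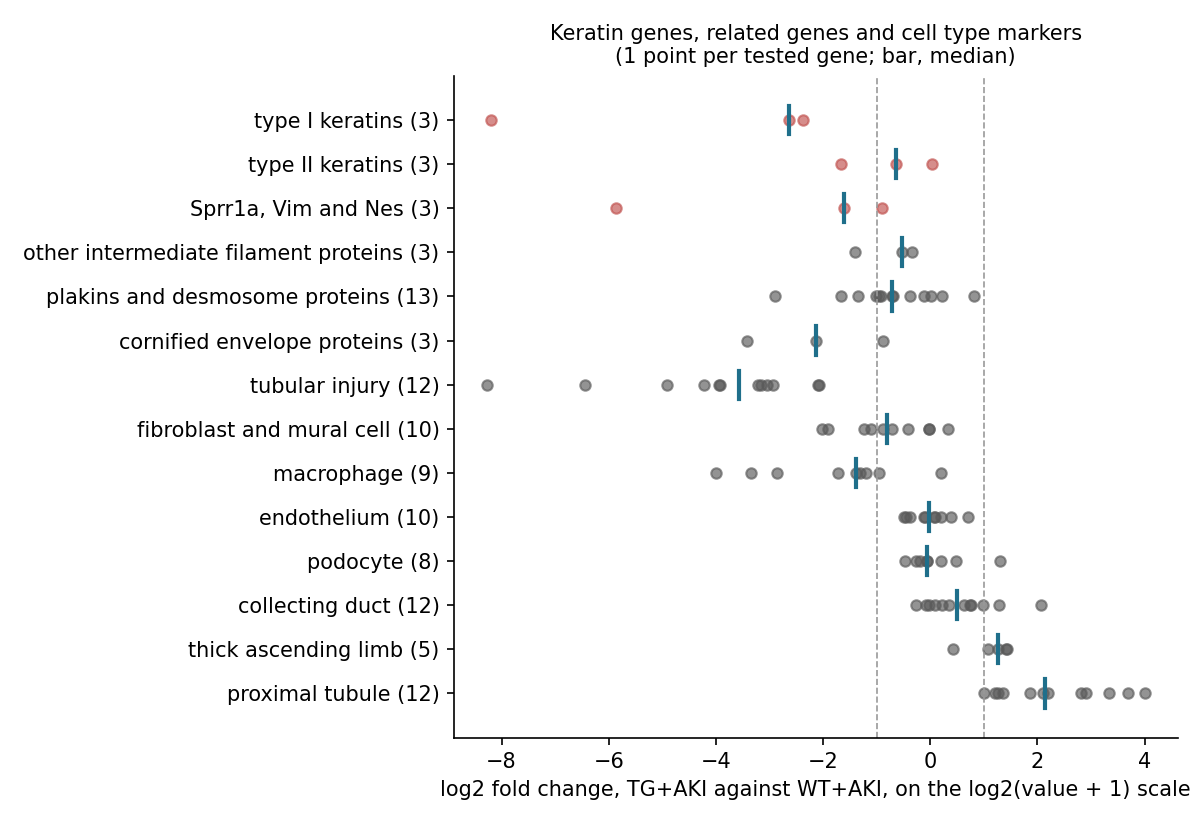
Log2 difference between TG+AKI and WT+AKI on the log2(value + 1) scale for the tested genes of each list (1 point per gene, bar at the median, number of tested genes in brackets). Red points are the keratin and related genes and grey points the related genes and cell type markers. The 3 type I keratins, *Sprr1a* and 2 of 3 tested genes of the cornified envelope list lie left of 2-fold (dashed lines). Endothelium and podocyte markers lie around 0, and proximal tubule markers lie to the right.

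Markers of several kidney cell types also differed between the libraries, in both directions. In whole kidney, fewer cells of a type and less RNA per cell cannot be told apart. The lists were chosen with earlier results of these data known. Their counts stand beside 7.12% lower and 5.74% higher among all tested genes. Of the proximal tubule markers, 12 of 12 tested were at least 2-fold higher in TG+AKI (median 2.15, summed value 5282 in WT+AKI against 19987 in TG+AKI). So were 4 of 5 tested thick ascending limb markers and 2 of 3 tested distal convoluted tubule markers. Of the tubular injury genes, 12 of 12 were at least 2-fold lower (median -3.57, summed value 13417 and 905). Among these, *Havcr1*, *Lcn2*, *Cd44*, *Sox9*, *S100a6*, *Il34* and *Tnfrsf12a* reached a value of 10 in WT+AKI only. They so entered the count through the library where they were high. *Anxa3*, *Clu*, *Cryab*, *Spp1* and *Vcam1* reached it in both libraries. The part of the tubular injury genes in the keratin values was not tested. *Krt20*, *Krt5* and *Krt7* are also urothelial genes. Of the 10 urothelial markers, 1 passed the level of 10 (*Foxq1*, 8.77 and 11.0), and the list summed to 18.2 in WT+AKI against 15.6 in TG+AKI. Without *Foxq1* the other 9, all below a value of 10 in both libraries, summed to 9.39 and 4.53. The largest change among the 9 was that of *Krt5*, itself a keratin (2.59 and 0.332), and *Upk1a* went the other way (1.06 and 1.18). The uroplakins *Upk1a*, *Upk1b*, *Upk2*, *Upk3a* and *Upk3b*, which define urothelium, lay at or below 1.34 in both libraries, and *Psca* had 1.91 and 0.393. The part of urothelial cells in the *Krt20* value was not tested. Of the collecting duct markers, 0 of 12 tested were lower and 2 were higher (median 0.50), whereas *Krt7*, *Krt19*, *Krt8* and *Krt18*, which collecting ducts express, were lower or within 2-fold. Of the keratinocyte markers, *Krt5*, *Krt15* and *Trp63* were listed, with a sum of 3.77 and 1.27.

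*Vim* and *Nes* are shared with stromal, endothelial and glomerular cells. Of the fibroblast and mural cell markers, 4 of 10 tested were lower, *Col1a1* (-2.01), *Col3a1* (-1.91), *Col1a2* (-1.23) and *Dcn* (-1.11), with a summed value of 756 and 401. Of the macrophage markers, 7 of 9 were lower, with a sum of 223 and 88.8. All 7 reached a value of 10 in WT+AKI only and so entered the count through the library where they were high. The others, *C1qb* (-0.95) and *Csf1r* (0.19), reached it in both libraries and were within 2-fold. The counts of this paragraph stand beside 7.12% lower and 5.74% higher among all tested genes. None of the 10 endothelial markers was 2-fold higher or lower (sum 728 and 687), and of the 8 podocyte markers 1 was higher and 0 lower. That podocyte marker, *Magi2*, reached a value of 10 in TG+AKI only. Whether these markers bear on the *Vim* difference was not tested.

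Among 2176 other genes whose higher value was 100 or more, those nearest to *Krt20*, *Krt8* and *Vim* in log2 difference are given as a description over 2 libraries. Nearest to *Krt20* were *Havcr1* (-8.27) and, at a distance of 1.75, *Lcn2* (-6.45). As ratios, *Krt20* was 1102-fold lower (interval 631 to 2133) and *Havcr1* 421-fold lower (interval 343 to 522). The likeness of these 2 genes thus rests on the log2(value + 1) scale. Nearest to *Krt8* were *Plec* (-1.66), *Tmcc3* (-1.66) and *Acsl4* (-1.64), and nearest to *Vim* were *Tpm4* (-1.60), *Rras2* (-1.61) and *F2r* (-1.60).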

How the data were processed

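A stranded kit for mRNA was used to make the libraries. The labels' processing notes name STAR 2.7.3a, HTSeq, DESeq2, edgeR and the mouse build mm10. The deposited table gives 1 normalized signal value per gene and library, which the authors obtained by scaling the gene's read count to the library. No value was 0, so genes without reads in either library appear to be left out, also from the counts over all 19829 genes. The gene annotation and the strand setting were not given in the sources used here. Every value was a whole multiple of the column minimum (100% of values in both libraries, within 0.01 reads), so reads were recovered, and 0.0236 was worth 1 read in WT+AKI and 0.0302 in TG+AKI. Although the methods name DESeq2, the scaling equals TMM factors from edgeR (1.10 and 0.909), so values are reads per 1000000.

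A gene was tested where its value reached 10 in one or both libraries. Differences were taken on the log2(value + 1) scale and called from 2-fold upwards. Ratios carry Clopper-Pearson intervals, and members were compared by exact conditional odds ratios. The exact binomial test used Benjamini-Hochberg adjustment. Lengths and coordinates came from GENCODE M21 (GRCm38). Of 19829 gene IDs, 19780 (99.8%) were in the RefSeq table and 17589 (88.7%) had a transcript. The genes and lists were chosen with earlier results of these data known. Named genes were the 10 chosen genes, up to 5 of each list with the largest differences, the 3 nearest to *Krt20*, *Krt8* and *Vim*, and *Inmt*. The text names a part of the list genes, and 1 of the nearest genes is not reported here. Genes below a value of 10 (such as the other keratins, uroplakins and opposite-strand transcripts) were named after their values were seen. The procedures were tested on simulated counts with counting error only, so the simulation does not cover spread between mice. Alternatives were other pseudocounts, scalings and filters. Python 3.11.15, numpy 2.4.6, scipy 1.17.1, pandas 2.3.3, R 4.3.3, edgeR 4.0.16 and DESeq2 1.42.0 were used.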

Additional observations from a re-analysis of the deposited data

How the results depend on the processing

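Between 4 and 7 of the genes were at least 2-fold lower under every alternative run (pseudocounts of 0.1, 10 and none, equal totals, a median ratio of 1, DESeq2 size factors, no filter, a filter of 50 and the binomial test added), and 0 were higher. A pseudocount of 10 left out *Krt19* (5 genes), equal totals and a median ratio of 1 added *Nes* (7 genes each), and a filter of 50 left 6 genes to test, 4 of them lower. The median log2 difference of the genes was -1.29 with a pseudocount of 10 and -1.93 with equal totals. Over all tested genes, lower and higher calls numbered 408 and 372 with a pseudocount of 10, 1141 and 359 with equal totals (23.9% of calls higher, against 44.6% as deposited), 915 and 458 with a median ratio of 1 (33.4% higher), 1150 lower without a filter, and 295 and 374 with a filter of 50 (55.9% higher). Equal totals moved the median of all tested genes by -0.28 and a median ratio of 1 by -0.15. Of 60 single log2 differences over 6 alternatives, 58 kept their sign, both exceptions being *Krt80*, and 23 moved by more than counting error. A pseudocount added to both values cannot change a sign. Only the scalings (equal totals, a median ratio of 1, DESeq2 size factors) could, so the count of kept signs says little. *Krt20* ranged from -5.30 with a pseudocount of 10 to -10.1 without one, and with a pseudocount of 10 *Sprr1a* stood at -3.63 and *Krt19* at -0.89. The alternative without a pseudocount, the principal transcript lengths and the pool without *Krt20* were added after the data were seen. No paired analysis was possible because each group has 1 library. The 12 reads of *Krt20* in TG+AKI limit the precision of its fold.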

Other observations

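Beyond the tested genes, filament genes of other cell classes were scarce in both kidneys. *Gfap*, the astrocyte filament gene, stood at 0.0943 in WT+AKI against 0.0604 in TG+AKI, and *Nefl*, a neurofilament gene, 0.0943 and 0.272. *Synm*, the gene for synemin, which co-assembles with vimentin and desmin, had 5.61 and 0.906, and *Eppk1*, the keratin-binding plakin epiplakin, 6.96 and 2.20, both below the level required for a call. In the plakin family *Macf1* (183 and 183), *Dst* (188 and 218) and *Evpl* (19.6 and 18.0) did not share the lower values of *Ppl* and *Plec* in TG+AKI. *Pkp4*, an armadillo protein of cell junctions, was the highest of the desmosome list in TG+AKI, with 217 and 385 (log2 difference 0.82). These genes were named after their values were seen.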
